A study of Homo sapiens with 6 samples.

Results

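Intergenic long noncoding RNAs (lincRNAs) that were well expressed in A549 cells, an established human line from a lung adenocarcinoma, were examined in cells with and without the MIR21 gene. The RNAs were selected by level: rows that the deposited table types as lincRNA and whose FPKM (fragments scaled by the length of the gene and by the size of the library) averaged at least 3 over all 6 libraries, with hosts named SNHG or MIRHG and GAS5 left out. This rule kept 143 of the 7514 lincRNA rows among 58174 genes, after 11 host names were removed from 154 rows over the limit. Levels of both groups entered the average, so an RNA with 1 low group was kept only if the other group was high, which applied to 15 RNAs with a Ctrl mean under 3 FPKM and 10 with a MIR21-KO mean under 3 FPKM. The groups were parental A549 cells (Ctrl, n = 3) and A549 cells with the MIR21 locus deleted by Cas9 and a pair of guide RNAs (MIR21-KO, n = 3), all harvested 48 h after seeding with no further treatment labelled. The MIR21-KO cells had been grown from sorted single cells, whereas Ctrl was the parental line, and the number of clones behind the 3 libraries is not stated, so a feature of a clone and the loss of MIR21 cannot be told apart. The paper speaks of biological triplicates and, for these RNA-seq fold changes, of 3 independent samples. It does not say whether these were separate cultures or clones. P-values therefore measure the spread between these libraries and not a spread between clones.

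LincRNAs are transcribed by RNA polymerase II, capped and mostly spliced and polyadenylated like mRNAs, but carry no long open reading frame and lie between protein-coding genes. Many stay in the nucleus, where some build nuclear bodies or act on nearby genes, while others bind proteins or microRNAs in the cytoplasm. MicroRNAs such as miR-21 find their targets through the seed, a short stretch near their 5′ end that pairs with a matching site, and targets are usually repressed. Names below are those of GENCODE 29, matched by Ensembl identifier for 139 of the 143 RNAs. The remaining 4 keep the name of the deposited table. GENCODE 29 still types 132 of the 139 as lincRNA and the rest otherwise, AC093323.1 as protein-coding. Apart from AC093323.1, 39 of the 138 matched RNAs overlap a protein-coding gene, so not all are strictly intergenic.

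Libraries held 10631667 to 14345209 reads, recovered from the FPKM values, and the 143 lincRNAs together took 0.249 to 0.265% of the reads in Ctrl and 0.293 to 0.308% in MIR21-KO. In bulk RNA, fewer expressing cells and less RNA per cell cannot be told apart. The mature miR-21 is not seen by polyA RNA-seq, and the MIR21 row (ENSG00000284190, chr17:59841266-59841337) was listed at 0 in all 6 libraries, so that it checks nothing. VMP1, the protein-coding gene whose 3′ end holds MIR21, rose from 75.1 ± 3.83 FPKM (SD, n = 3) to 142.5 ± 7.18 FPKM. The lincRNAs were uneven among the MIR21-KO libraries. Replicate 1 held the highest of the 3 MIR21-KO values for 84 of the 143 (58.7%), and replicate 3 the lowest for 82 (57.3%). Their median deviation from the group mean was 0.14 in replicate 1, 0.00 in replicate 2 and -0.14 in replicate 3 on the log2 scale, against 0.01, 0.01 and -0.01 over all 16006 genes tested. The unevenness was wider for the 66 RNAs under 1 kb, with medians of 0.20 and -0.24 in replicates 1 and 3, than for the 77 longer ones, with 0.09 and -0.10. Other tested lincRNAs (586) deviated less, by 0.07 and -0.03, and for protein-coding genes of at least 3 FPKM the values were 0.03 and -0.04. Replicate 1 was also most often the highest and replicate 3 the lowest among those protein-coding genes (46.3 and 50.5%) and among antisense genes of that level (46.8 and 42.3%). The part of this unevenness in the results below was not tested, and calls are therefore given with and without single libraries.

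**Figure D1:**
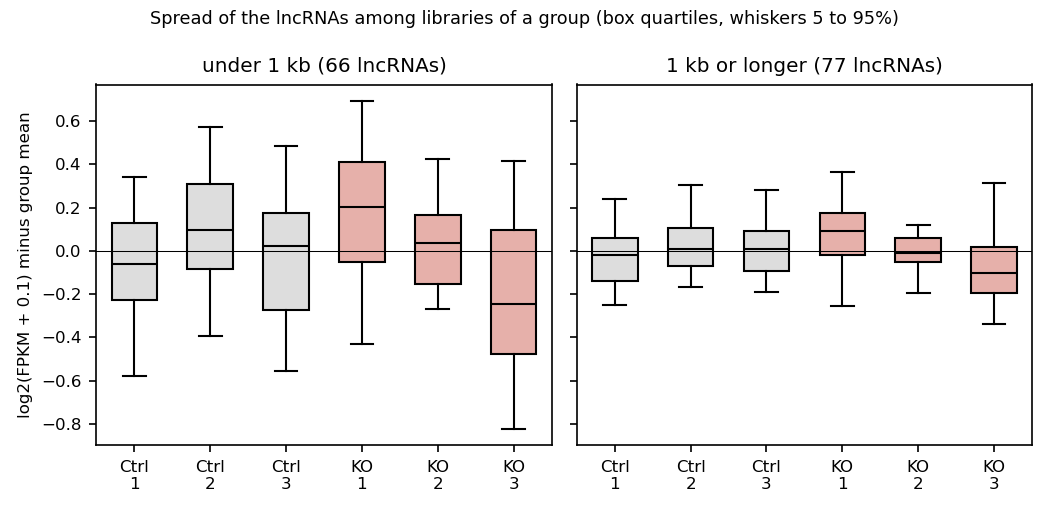
Box plots of each lincRNA's log2(FPKM + 0.1) minus the mean of its group, for 66 RNAs under 1 kb (left) and 77 longer ones (right), by library; boxes give quartiles with the median line, and whiskers the 5th and 95th percentiles. MIR21-KO replicate 1 lies above and replicate 3 below the group mean, more so among short RNAs.

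Mean levels ran from 3.01 to 60.3 FPKM with a median of 5.38 FPKM. Of the 143 RNAs, 63 averaged under 5 FPKM, 57 between 5 and 10, and 23 above 10 FPKM, of which 6 exceeded 20 FPKM. Protein-coding genes held to the same limit had a median of 9.90 FPKM. Gene lengths ran from 173 to 22767 bases with a median of 1177, and among the 139 matched genes 40 had a single exon in every annotated transcript and 99 had more. Depth was low for part of them: 12 had fewer than 10 reads in at least 1 library and 27 averaged fewer than 30 reads. The limit of 3 FPKM fell inside a dense range of levels. LINC00920 (mean 3.01 FPKM) and AC092368.3 (3.02 FPKM) lay just inside it, and AC104695.2 and HCG11 (2.99 FPKM each) just outside.

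**Figure D2:**
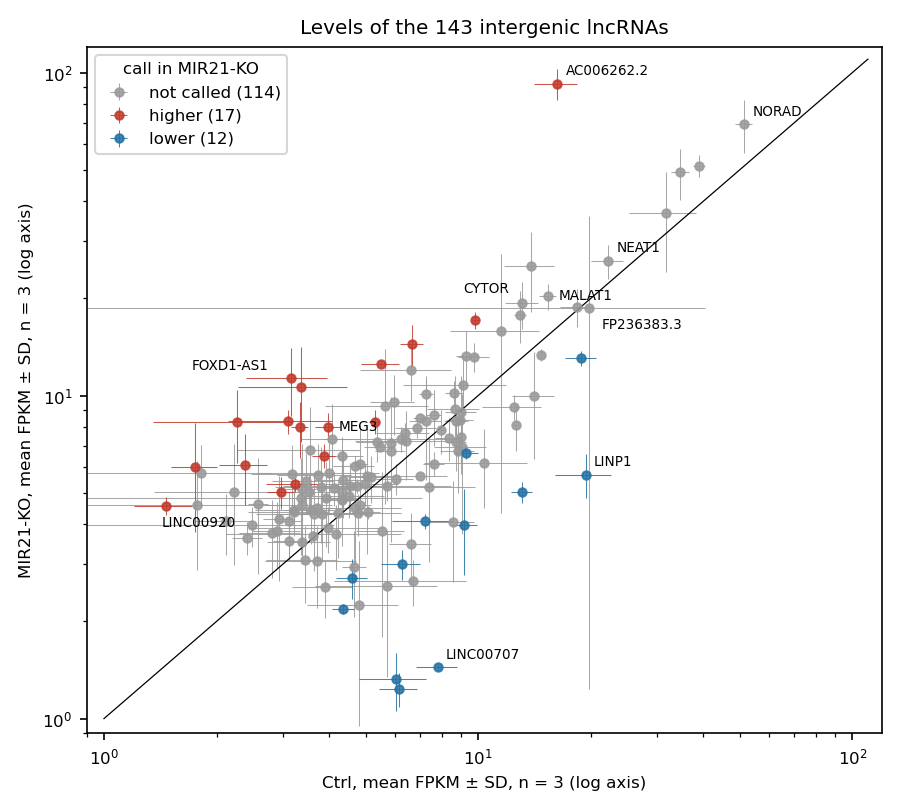
Mean FPKM of the 143 lincRNAs in Ctrl (x axis) and MIR21-KO (y axis), both on log axes, with SD bars over n = 3 libraries that are cut off at the axis limits where they reach lower; the line marks equal levels. AC006262.2 stands far above the line, LINP1 and LINC00707 below it, and FP236383.3 has the longest bars.

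The most abundant were NORAD, AC006262.2, IGFL2-AS1, AC048341.2, AC245041.1, NEAT1, BX284668.5 and FP236383.3. NORAD (ENSG00000260032, chr20:36045622-36050960), a cytoplasmic RNA that protects chromosome stability, measured 54.0, 48.6 and 51.3 FPKM in Ctrl replicates 1 to 3 and 57.3, 67.3 and 83.3 FPKM in MIR21-KO. The groups did not overlap, yet the MIR21-KO libraries spread widely and the log2 fold change of 0.42 ± 0.14 (SE) was not called (limma FDR 0.0607). It was called only after removal of each library's trends on GC content and gene length (FDR 0.00164). AC006262.2, called higher, is described with the raised RNAs. IGFL2-AS1 measured 38.7, 37.6 and 40.4 FPKM in Ctrl and 54.8, 52.7 and 46.9 FPKM in MIR21-KO, without overlap and just short of the threshold (log2 fold change 0.40, FDR 0.0120). It was called without MIR21-KO replicate 3 (FDR 0.00260). AC048341.2 (log2 fold change 0.49, FDR 0.0302) and BX284668.5 (0.83, FDR 0.0234) also lay above Ctrl in every MIR21-KO library without a call, while AC245041.1 (FDR 0.687) overlapped and turned sign when MIR21-KO replicate 3 was left out (-0.06).

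Between the groups, 29 of the 143 lincRNAs (20.3%) were called at an FDR under 0.01 (limma over 16006 genes, two-sided), 17 higher and 12 lower in MIR21-KO. Over all genes tested, 16% were called, 7.66% higher and 8.38% lower. Because the rule used the values of both groups, these counts describe the set and carry no test. Among the 118 lincRNAs with at least 3 FPKM in both groups 19 were called (16.1%), and among the 25 with 1 group below that 10 (40%). Protein-coding genes of at least 3 FPKM had 22% called, antisense genes of that level 13% and the other 586 tested lincRNAs 7%, the last with a median of only 14 reads. In 73 lincRNAs (51%) the 3 values of one group all lay apart from those of the other, 49 above and 24 below Ctrl, compared with 48.1% of all genes tested. The median log2 fold change was 0.23, with 97 positive and 46 negative values, against a median of -0.02 over all genes tested and 0.33 over the other lincRNAs. Spliced lincRNAs had 25 calls among 99, and single-exon ones 4 among 40, at medians of 109 and 64.4 reads. The count depended on single libraries: it was 15 without Ctrl replicate 1, 2 or 3, 12 without MIR21-KO replicate 2, but 36 when replicate 3 was left out instead. Calls over all genes tested moved as well, from 2568 to 895, 922 and 873 without Ctrl replicates 1, 2 and 3. They numbered 768 without MIR21-KO replicate 2 and 3400 without its replicate 3, so the dependence was not particular to the lincRNAs. Removing trends on GC content and length gave 27 higher and 12 lower. Of the 29 calls, 10 held in each fit without 1 library, 4 of them higher (AC006262.2, LINC00920, AC004585.1 and LINC02086) and 6 lower (LINC00707, AL161431.1, AL162411.1, LINP1, AC092118.1 and AC125807.2). Among these, LINC00920 had a Ctrl mean under 3 FPKM. LINC00707, AL161431.1, AL162411.1 and AC125807.2 had a MIR21-KO mean under 3 FPKM. These RNAs passed the rule only through their higher group, so the selection itself favoured a difference in them.

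**Figure D3:**
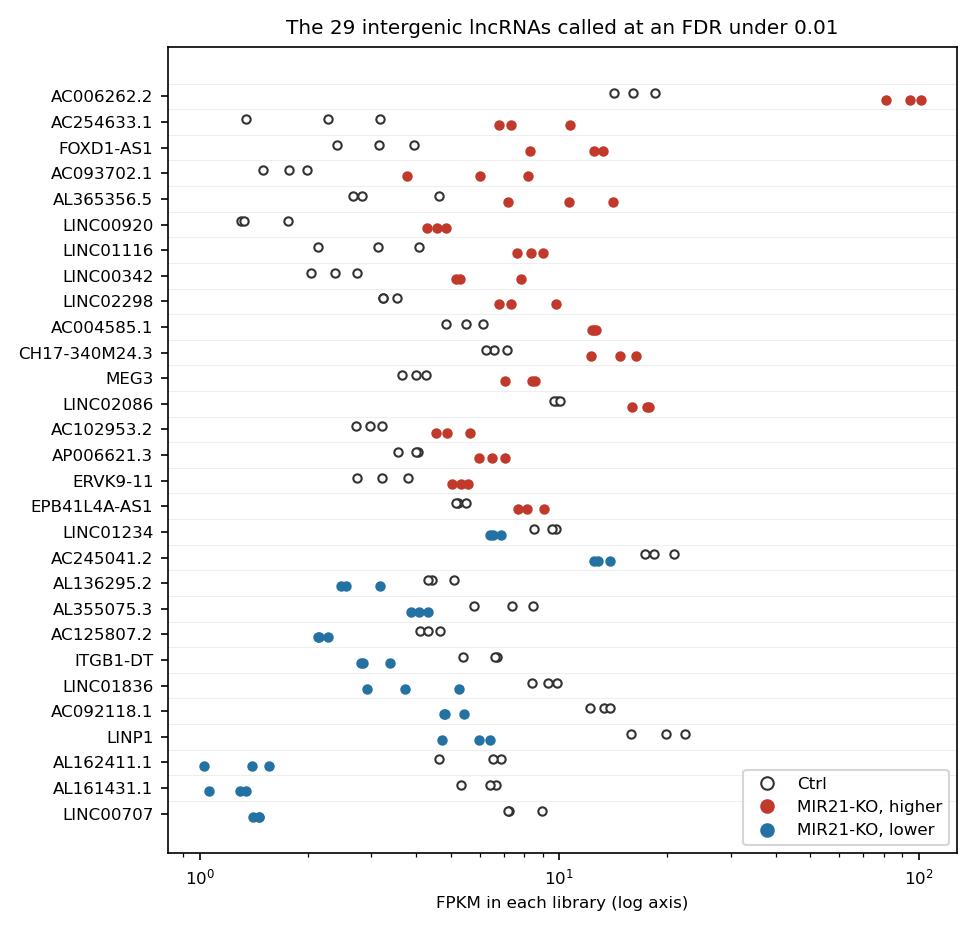
FPKM in each library (log axis) of the 29 called lincRNAs, ordered by log2 fold change; open points are Ctrl, filled points MIR21-KO, red for higher and blue for lower. In every row the 3 Ctrl and 3 MIR21-KO points are apart, with the widest gap on this axis in LINC00707, followed by AC006262.2.

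The largest rise was that of AC006262.2 (ENSG00000269729, chr19:46163893-46180647), a spliced RNA without an assigned function. It measured 16.0, 14.2 and 18.5 FPKM in Ctrl and 102, 94.5 and 81.2 FPKM in MIR21-KO, backed by 130 to 215 and 894 to 1175 reads. No Ctrl library came near the MIR21-KO values, and the log2 fold change was 2.50 ± 0.13 (limma FDR 7.85e-05, at most 0.00197 in any alternative). LINC00920 rose from 1.76, 1.30 and 1.33 FPKM to 4.27, 4.57 and 4.85 FPKM (log2 fold change 1.59 ± 0.15, FDR 0.000627). The groups were apart, although the RNA was at the lower limit of the selection. AC004585.1 stood at 4.85, 6.13 and 5.49 FPKM in Ctrl and at 12.5, 12.7 and 12.4 FPKM in MIR21-KO (1.18 ± 0.10, FDR 0.000446). LINC02086, which starts 13351 bases from HOXB7 of the HOXB cluster, rose from 9.83, 9.64 and 10.0 FPKM to 16.0, 17.6 and 17.8 FPKM (0.79 ± 0.07, FDR 0.000628).

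Other raised lincRNAs had a call that depended on single libraries. MEG3 is the best known of them, an imprinted RNA of chromosome 14 expressed from the maternal copy and described as restraining growth through p53. It measured 4.0, 3.64 and 4.26 FPKM in Ctrl and 7.05, 8.40 and 8.56 FPKM in MIR21-KO, a 1.99-fold rise from 618 to 919 reads to 1514 to 1750 reads. The groups were well apart (log2 fold change 0.99 ± 0.11, FDR 0.00133), and of the fits without 1 library only that without MIR21-KO replicate 2 lost the call (FDR 0.0114). CH17-340M24.3 likewise lost its call only without that library (log2 fold change 1.10, FDR 0.00122 and 0.0104). LINC01116, described as growth-promoting in several cancers, measured 3.13, 4.07 and 2.13 FPKM in Ctrl and 9.02, 8.34 and 7.61 FPKM in MIR21-KO (1.43 ± 0.22, FDR 0.00422). With Ctrl replicate 1 left out its FDR was 0.0197, and 0.0112 and 0.0238 with replicate 1 or 2 of MIR21-KO left out. LINC02298 (1.22, FDR 0.00170) was not called without Ctrl replicate 2 or 3 or without MIR21-KO replicate 2, with FDRs up to 0.0116. LINC00342 (1.30, FDR 0.00365) held only without MIR21-KO replicate 1 or 3, AC093702.1 (1.66, FDR 0.00544) likewise, and AL365356.5 (1.62, FDR 0.00758) only without MIR21-KO replicate 3. Their highest FDRs without 1 library were 0.0189, 0.0295 and 0.0361. AC093702.1 rested on 7 to 10 reads in Ctrl and 18 to 41 in MIR21-KO, so its fold is imprecise. Smaller rises were called for AC102953.2 (0.73), AP006621.3 (0.73), ERVK9-11 (0.70), a locus of an endogenous retrovirus, and EPB41L4A-AS1 (0.64), with FDRs of 0.00538, 0.00305, 0.00949 and 0.00318. Each call was lost when any 1 Ctrl library or MIR21-KO replicate 2 was left out, and ERVK9-11 in every fit without 1 library. The highest FDRs of the 4 without 1 library lay between 0.0200 and 0.0389.

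Among the lowered lincRNAs, LINC00707 and LINP1 lie 39.0 kb apart on the same strand of chromosome 10. LINC00707 (ENSG00000238266, chr10:6779549-6879450), described in lung adenocarcinoma cells, measured 8.93, 7.24 and 7.22 FPKM in Ctrl and 1.46, 1.41 and 1.46 FPKM in MIR21-KO. The fall by 2.35 ± 0.12 on the log2 scale was the largest of the set (FDR 7.68e-05), and the MIR21-KO values differed little among themselves. LINP1 (ENSG00000223784, chr10:6709530-6740532), a scaffold for proteins that join broken DNA ends, measured 15.8, 22.4 and 19.9 FPKM in Ctrl and 6.40, 5.97 and 4.71 FPKM in MIR21-KO (-1.75 ± 0.16 on the log2 scale, limma FDR 0.000656). No Ctrl library fell near the MIR21-KO range for either RNA. The nearest protein-coding gene of both, PRKCQ, was not called (-0.23, FDR 0.216).

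AL161431.1 and AL162411.1 fell to similar levels, and AC092118.1 fell less steeply. AL161431.1 (chr13:109269634-109278512) measured 5.34, 6.68 and 6.42 FPKM in Ctrl and 1.29, 1.34 and 1.06 FPKM in MIR21-KO (-2.23 ± 0.14, FDR 0.000171). AL162411.1, with only 7 to 10 reads in MIR21-KO libraries, went from 4.63, 6.89 and 6.53 FPKM to 1.40, 1.55 and 1.03 FPKM (-2.10 ± 0.21, FDR 0.000848). AC092118.1, which lies opposite KIFC3 within its span, measured 13.3, 13.8 and 12.2 FPKM in Ctrl and 4.79, 5.45 and 4.81 FPKM in MIR21-KO (-1.37 ± 0.09, FDR 0.000193). The groups of all 3 RNAs were far apart, and KIFC3 itself did not pass the test (-0.07, FDR 0.665). AC125807.2 fell from 4.36 ± 0.289 to 2.19 ± 0.0767 FPKM (SD, n = 3, FDR 0.00113). ITGB1-DT, which starts inside ITGB1 on the opposite strand, 46947 bases from the start of that gene, fell from 6.24 ± 0.729 to 3.01 ± 0.323 FPKM (-1.03, FDR 0.00201). Its call was lost without Ctrl replicate 2 (FDR 0.0126), Ctrl replicate 3 (0.0142) or MIR21-KO replicate 2 (0.0142). ITGB1, which encodes integrin β1, averaged 289.6 FPKM in Ctrl and was not called (0.17, FDR 0.380), and reads of the overlap cannot be told apart unless strand was used in counting. LINC01836 (-1.23, FDR 0.00549), AL355075.3 (-0.79, FDR 0.00837), AL136295.2 (-0.74, FDR 0.00768), AC245041.2 (-0.52, FDR 0.00682) and LINC01234 (-0.48, FDR 0.00743) lost their calls in at least 4 of the 6 fits without 1 library, Ctrl replicates 1 and 2 being among those libraries for each. Their highest FDRs in these fits lay between 0.0266 and 0.0399.

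The other 114 lincRNAs were not called, with log2 fold changes from -1.23 to 1.72, of which 35 lay within 0.2 of 0. An FDR of 0.01 or more but under 0.05 was reached by 25 of them, 20 with positive and 5 with negative values. That is 17.5% of the 143 lincRNAs, near the 15.9% of all genes tested. AC006058.1 came closest, at 12.9, 12.7 and 12.4 FPKM in Ctrl and 6.65, 8.35 and 9.39 FPKM in MIR21-KO (-0.65 ± 0.13, FDR 0.0107). The Ctrl libraries of this RNA were tight and the MIR21-KO libraries spread. LINC01186 (-0.93, FDR 0.0128), AC004816.1 (-1.12, FDR 0.0176) and AC018645.2 (-1.23, FDR 0.0239) were lower in every MIR21-KO library on 13 to 86 reads. AC026471.4, with 6 to 43 reads, measured 1.575, 2.899 and 0.977 FPKM in Ctrl and 7.03, 5.82 and 4.46 FPKM in MIR21-KO, the largest uncalled difference (1.72 ± 0.37, FDR 0.0141). The 3 neighbouring RNAs of chromosome 17 read from the same strand, AC005332.6 (0.43, FDR 0.0256), AC005332.3 (0.59, FDR 0.105) and AC005332.5 (0.73, FDR 0.0909), had positive values without a call. At the HOXB cluster, AC103702.2, which starts from the other strand across the start of LINC02086, had a negative value (-0.30, FDR 0.0577) beside the called rise of LINC02086.

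LincRNAs with known roles were examined by list, and their counts stand beside the 20.3% of the 143 lincRNAs and 16% of all genes tested that were called. Of 3 members tied to nuclear bodies and chromatin 1 was called, MEG3. NEAT1, the scaffold of paraspeckles, measured 19.9, 22.5 and 24.2 FPKM in Ctrl and 25.9, 29.5 and 23.1 FPKM in MIR21-KO, so the groups overlapped (log2 fold change 0.23 ± 0.12, FDR 0.175). MALAT1, a nuclear speckle RNA first found in lung cancer, measured 14.4, 15.8 and 15.8 FPKM in Ctrl and 22.3, 18.5 and 20.1 FPKM in MIR21-KO. Its values were apart but not called (0.40 ± 0.09, FDR 0.0175), although voom on the recovered reads gave an FDR of 0.00853. Both RNAs are only partly captured by oligo(dT), MALAT1 because its 3′ end is not a regular polyA tail.

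Of the 4 members tied to p53 or genome stability, NORAD, TP53TG1, PURPL and PVT1, none was called. TP53TG1, a target of p53, measured 12.8, 12.5 and 13.4 FPKM in Ctrl and 21.2, 17.5 and 14.7 FPKM in MIR21-KO, without overlap (0.44 ± 0.13, FDR 0.0456) and with a call only when MIR21-KO replicate 3 was left out (0.00651). PURPL, which p53 induces and which dampens p53, overlapped at 8.69 ± 1.37 and 9.10 ± 2.41 FPKM (SD, n = 3, FDR 0.882). Its small log2 fold change of 0.05 turned negative without Ctrl replicate 2 (-0.05) and without MIR21-KO replicate 3 (-0.16). PVT1, the neighbour of MYC, averaged 4.68 ± 0.597 and 6.06 ± 0.448 FPKM (FDR 0.0544).

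Cancer-associated members numbered 9, with LINC01116 called. CYTOR measured 12.6, 14.6 and 12.1 FPKM in Ctrl and 22.7, 18.7 and 16.4 FPKM in MIR21-KO, apart but uncalled (0.55 ± 0.14, FDR 0.0235; 0.00848 without MIR21-KO replicate 3). CYTOR has a near-identical copy, MIR4435-2HG, so its counts are uncertain. LINC00473, known to be high in lung cancers that lost LKB1, was even within each group, at 5.82, 5.89 and 5.86 FPKM in Ctrl and 7.08, 7.26 and 7.06 FPKM in MIR21-KO (0.28 ± 0.07, FDR 0.0280). LINC00511 lay apart in the same way at 6.98 ± 0.281 and 8.53 ± 0.295 FPKM (FDR 0.0305), whereas CASC9 (FDR 0.402) and LINC00941 (FDR 0.281) overlapped.

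Besides the hosts left out by name, 7 of the lincRNAs contain an annotated microRNA or snoRNA gene on their own strand. EPB41L4A-AS1, which holds SNORA13, was called higher at 5.22, 5.17 and 5.49 FPKM in Ctrl and 9.07, 8.11 and 7.70 FPKM in MIR21-KO, and MEG3, which holds MIR770 and MIR2392, was called higher as above. NEAT1, CYTOR and PVT1 were described with the role lists. AC020916.1, whose span holds MIR23A, MIR27A and MIR24-2, had values of 9.70, 9.59 and 8.61 FPKM in Ctrl and 14.8, 14.6 and 10.3 FPKM in MIR21-KO (0.49 ± 0.15, FDR 0.0472). LINC02001, with SNORD7, overlapped (FDR 0.177). No member belonged to the lists of X-inactivation RNAs or of RNAs with a translated small open reading frame.

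Of the proteins that handle such RNAs, 11 of 47 listed mRNAs were called lower by limma and 0 higher, 0 also at an unadjusted p under 0.05 and with voom. Over all genes tested 8.38% were called lower. Of the 8506 protein-coding genes of at least 3 FPKM, a closer class, 1085 were called lower and 787 higher. Lowered mRNAs numbered 2 or 3 when Ctrl replicate 1, 2 or 3 or MIR21-KO replicate 2 was left out. In those fits calls over all genes fell from 2568 to between 768 and 922. Paraspeckle proteins had 3 of 13 lower. RBM14, needed to assemble paraspeckles, measured 31.4, 32.9 and 34.8 FPKM in Ctrl and 18.5, 17.4 and 16.7 FPKM in MIR21-KO (-0.91 ± 0.08, FDR 0.000393). TARDBP (-0.51, FDR 0.00331) and PSPC1 (-0.55, FDR 0.00450) fell less, and SFPQ (-0.33, FDR 0.0110) and NONO (0.09, FDR 0.358), which bind NEAT1 directly, were not called. The nuclear exosome and its adaptors, which degrade unstable nuclear RNA, had 5 of 18 lower. EXOSC2, a cap subunit, measured 21.8, 21.8 and 22.1 FPKM in Ctrl and 11.6, 12.02 and 9.75 FPKM in MIR21-KO (-0.98 ± 0.09, FDR 0.000704). MTREX, the helicase that feeds the exosome, went from 15.5 ± 0.306 to 9.52 ± 1.02 FPKM (SD, n = 3, FDR 0.00244), and EXOSC10 (FDR 0.00614), EXOSC3 (0.00820) and EXOSC8 (0.00476) were also called lower. Integrator, which cleaves nascent noncoding transcripts, had INTS13 (-0.60, FDR 0.00213), INTS7 (-0.66, FDR 0.00306) and INTS8 (-0.65, FDR 0.00977) lower among 14. Whether these mRNAs bear on the lincRNAs was not tested.

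Seed matches were searched because the cells differ in miR-21. The mature sequences are shown with the seed, bases 2 to 8, in capitals (RefSeq, GRCh38.p14), let-7a-5p serving as another microRNA whose genes were not targeted. The paper reports raised levels of the whole family of this other microRNA in the knockout cells. Its matches therefore do not stand for a microRNA that is equal between the groups.
hsa-miR-21-5p: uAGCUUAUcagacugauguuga
hsa-let-7a-5p: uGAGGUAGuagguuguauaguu
A 7mer-m8 match to miR-21-5p reads ATAAGCT in the RNA's DNA letters, and an 8mer adds an A (ATAAGCTA). Annotated transcripts of 15 of the 139 lincRNAs (10.8%) held at least a 7mer-m8 match, 4 of them an 8mer, compared with 35 of the 584 other tested lincRNAs (5.99%). Unlike the 586 other lincRNAs above, these 584 had transcripts in the annotation and were taken without leaving out the host names. The lincRNAs with a match were longer, with a median of 2977 bases against 742.5 for the 100 without any match down to a 6mer. For let-7a-5p, 17 of the 139 (12.2%) held such a match. The 4 RNAs with a miR-21-5p 8mer and the other 2 lowered RNAs with a 7mer-m8 match are shown with the match in capitals (GRCh38, plus strand).
GS1-124K5.4, chr7:66493797-66493804: cgccgacaccaATAAGCTAcaaggaggagc
LINC00707, chr10:6812505-6812512: ggattacaggcATAAGCTActgcacccggc
PURPL, chr5:27485367-27485374: aaagggggagcATAAGCTAaggaataaagc
LINC00294, chr11:33077532-33077539: gctctatgaagATAAGCTAattttcttcct
AL161431.1, chr13:109273605-109273611: gaagattacacATAAGCTgtcatacacgt
AC092118.1, chr16:57798304-57798310: aacaaggggagATAAGCTtgaagaccgtg
Of the 15, 0 were called higher and 3 lower in MIR21-KO by limma, the 3 being LINC00707, AL161431.1 and AC092118.1. At an unadjusted limma p under 0.05, 4 were higher, and 2 were called higher by voom. Over all genes tested 7.66% were called higher and 8.38% lower, and of the 143 lincRNAs 20.3% were called, so counts among 15 are small. LINC00707 and AL161431.1 also passed the rule of 3 FPKM only through Ctrl. Their median log2 fold change was 0.02, with 8 positive values, whereas the 100 lincRNAs without a match had a median of 0.21, 14 called higher and 6 lower. The 35 other tested lincRNAs with such a match had 5 called higher and 0 lower by limma at a median of 0.27, 3 lower at an unadjusted p under 0.05 and 0 called lower by voom. GS1-124K5.4 measured 6.84, 6.37 and 3.66 FPKM in Ctrl and 13.9, 9.38 and 4.57 FPKM in MIR21-KO, with overlap (FDR 0.302). LINC00294 stood at 8.95 ± 0.757 and 8.43 ± 0.0947 FPKM (SD, n = 3, FDR 0.513) and shares its strand with TCP11L1, so reads may be shared. MALAT1, with 1 match of 7mer-m8, and PURPL were given above. With only the longest transcript of each gene, 10 lincRNAs held a match, and those of AC092118.1 and the 8mer of LINC00707 were not in it. Among the 17 with a let-7a-5p match, 1 was called higher (MEG3, which holds 2 8mers) and 3 lower, with a median of 0.14. The sets share members and the differences between them carry no test.

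**Figure D4:**
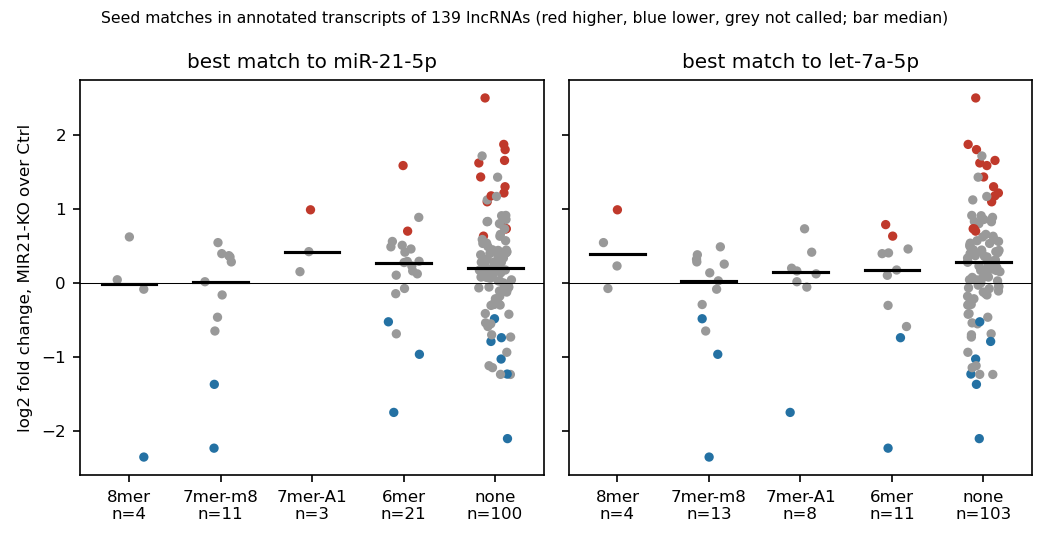
Log2 fold change of 139 lincRNAs by their best seed match to miR-21-5p (left) and let-7a-5p (right), with n per class; points are RNAs, red called higher, blue called lower, grey not called, and bars are medians. No red point lies among the 15 RNAs in the 8mer and 7mer-m8 classes of miR-21-5p, where 7.66% of all genes tested were called higher.

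LincRNAs were next set beside their nearest protein-coding gene. AC093323.1, which the annotation types as protein-coding, was not paired as a lincRNA. It is the neighbour of LINC02482, so that pair sets members of the selection side by side. Of the other 138 matched lincRNAs, 105 had a neighbour that was tested, and 21 of these lincRNAs were called. Some pairs share a neighbour, and of the 100 distinct neighbours 24 were called. That is near the 22% called among protein-coding genes of at least 3 FPKM, with 16% called over all genes tested. Both members were called in 7 of the 21 pairs with a called lincRNA, in the same direction in 6. The log2 fold changes of lincRNA and neighbour had a Pearson r of 0.49 and a Spearman rho of 0.39 over the 105 pairs, 0.65 and 0.47 over the 71 pairs at most 10 kb apart, and 0.14 and 0.19 over the 34 farther ones. Signs did not follow that order, matching in 43 of the 71 close pairs and in 24 of the 34 farther ones. Without the pairs of GLDC and IGFL2, r within 10 kb was 0.49. All pairs come from the same 6 libraries, so these values are descriptions across genes. Part of the close pairs overlap (33), where reads can be assigned to either gene unless strand was used in counting; the 38 close pairs that do not overlap had an r of 0.75, or 0.51 without GLDC and IGFL2.

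**Figure D5:**
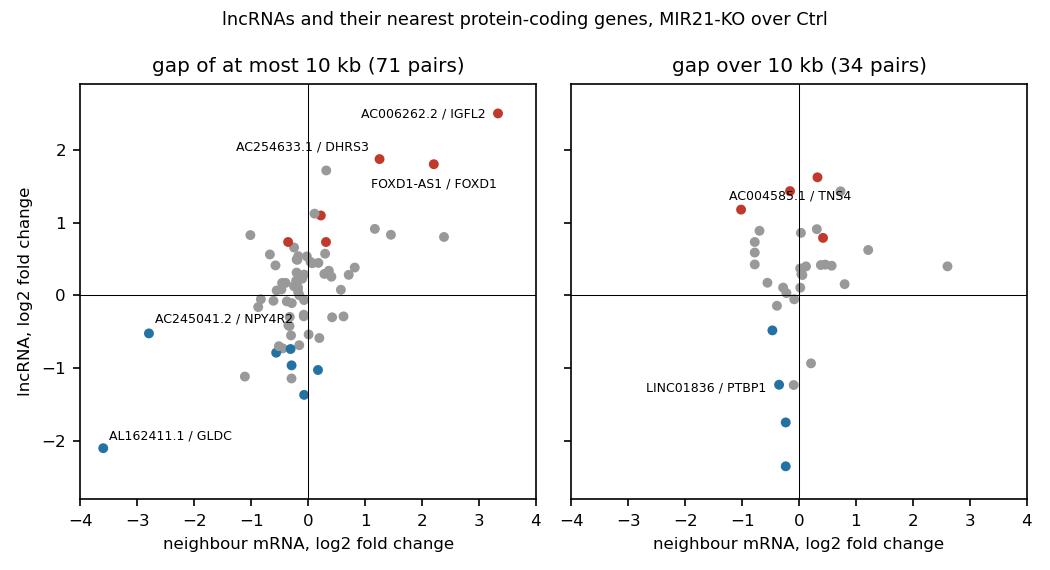
Log2 fold change of each lincRNA (y axis) against that of its nearest tested protein-coding gene (x axis), for 71 pairs at most 10 kb apart (left) and 34 farther pairs (right); red and blue mark called lincRNAs and labels the 7 pairs with both called. The labelled close pairs lie on the diagonal quadrants, and AC004585.1 with TNS4 lies in the opposite one.

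The widest joint rise was at the IGFL locus of chromosome 19. AC006262.2 ends 2594 bases from IGFL2, a gene of the insulin growth factor-like family, which measured 0.939, 0.690 and 0.723 FPKM in Ctrl and 8.86, 9.12 and 8.33 FPKM in MIR21-KO (3.34 ± 0.14, FDR 4.21e-05). The same stretch holds IGFL2-AS1 (0.40) and AC007785.1, which measured 4.08 ± 0.722 and 7.32 ± 2.11 FPKM (0.80, FDR 0.0380) and overlaps IGFL2 on its own strand. The 3 lincRNAs thus differed in size of change within one locus. IGFL3, on the strand opposite AC007785.1, was also called higher (log2 fold change 2.39, limma FDR 5.72e-05). IGFL1, the nearest coding gene of IGFL2-AS1, had a large value without a call (2.61 ± 0.84, FDR 0.0540). FOXD1-AS1 (ENSG00000247993, chr5:73446357-73446984) lies opposite FOXD1, a forkhead transcription factor. It measured 3.15, 3.95 and 2.41 FPKM in Ctrl and 12.5, 8.28 and 13.3 FPKM in MIR21-KO (1.80 ± 0.24, FDR 0.00221; 0.0130 and 0.01003 without Ctrl replicate 1 or 3). FOXD1 went from 8.15, 7.80 and 11.01 FPKM to 45.9, 40.2 and 38.5 FPKM (2.21 ± 0.15, FDR 0.000186). AC254633.1 lies 1169 bases from DHRS3, a reductase of retinaldehyde, and rose from 2.28, 1.35 and 3.179 FPKM to 6.81, 7.34 and 10.7 FPKM on 5 to 48 reads (1.87 ± 0.32, FDR 0.00577, up to 0.0252 without MIR21-KO replicate 2). Its call also failed without Ctrl replicate 1 (FDR 0.0241), Ctrl replicate 2 (0.0124) or MIR21-KO replicate 3 (0.0113). DHRS3 rose with it, from 19.8, 21.3 and 22.7 FPKM to 62.5, 49.3 and 42.7 FPKM (FDR 0.00138).

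The joint falls were those of AL162411.1 with GLDC, AC245041.2 with NPY4R2 and LINC01836 with PTBP1. GLDC, the glycine decarboxylase of the glycine cleavage system, starts 173 bases from AL162411.1 on the other strand and measured 3.09, 2.97 and 2.98 FPKM in Ctrl and 0.172, 0.219 and 0.0949 FPKM in MIR21-KO (-3.60 ± 0.25, FDR 0.000222). NPY4R2, a neuropeptide Y receptor gene inside AC245041.2, fell from 7.45 ± 0.931 to 0.998 ± 0.240 FPKM (SD, n = 3, FDR 0.000199); it has a near-identical copy, NPY4R, so both values are uncertain. AC245041.2 and the more abundant AC245041.1 also share a strand, and only the former was called. PTBP1, a splicing regulator 11995 bases from LINC01836, was called with a small change (-0.35, FDR 0.00776) that failed in 4 of 6 fits without 1 library (FDR up to 0.0481). AC004585.1 and TNS4, an adhesion protein gene 15429 bases away and read outward from it, were called in opposite directions, TNS4 falling from 51.5, 45.7 and 48.7 FPKM to 21.6, 25.4 and 24.9 FPKM (-1.02 ± 0.09, FDR 0.000520).

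Starts within 1 kb of the neighbour's start and on the other strand were found for 29 lincRNAs, with 28 neighbours tested, of which 5 were called. Over all genes tested 16% were called, and among protein-coding genes of at least 3 FPKM 22%. The stretches between the paired starts of the 3 called lincRNAs are shown because they are the DNA both genes share, with CpG dinucleotides in capitals (RefSeq, GRCh38.p14, strand of the lincRNA).
AL162411.1 and GLDC, chr9:6645783-6645956: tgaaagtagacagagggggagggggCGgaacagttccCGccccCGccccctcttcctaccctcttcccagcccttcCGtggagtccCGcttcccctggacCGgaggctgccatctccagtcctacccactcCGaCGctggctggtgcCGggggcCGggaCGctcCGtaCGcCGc
CH17-340M24.3 and ATP6AP1, chrX:154428479-154428632: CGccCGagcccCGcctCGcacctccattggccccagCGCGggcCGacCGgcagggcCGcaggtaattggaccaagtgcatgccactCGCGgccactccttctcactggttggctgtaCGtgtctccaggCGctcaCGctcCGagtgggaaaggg
AP006621.3 and GATD1, chr11:777488-777578: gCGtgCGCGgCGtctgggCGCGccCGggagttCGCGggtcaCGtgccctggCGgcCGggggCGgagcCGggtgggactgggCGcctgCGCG
The 174, 154 and 91 bases held 14, 15 and 17 CpGs at 70.1, 68.8 and 83.5% GC. Only at the first were both genes called. CH17-340M24.3 measured 6.57, 7.15 and 6.24 FPKM in Ctrl and 16.3, 14.8 and 12.2 FPKM in MIR21-KO, while ATP6AP1, an accessory subunit of the vacuolar proton pump, measured 24.5, 25.8 and 25.0 FPKM and 32.9, 29.2 and 26.2 FPKM, apart but not called (0.22, FDR 0.120). AP006621.3 measured 3.56, 4.04 and 4.0 FPKM in Ctrl and 7.07, 6.48 and 5.97 FPKM in MIR21-KO, while GATD1 overlapped between the groups (0.31, FDR 0.0945).

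Some lincRNAs varied more among libraries of one group than between groups. The larger of the ratios of highest to lowest value within a group had a median of 1.49, was under 1.5 for 73 RNAs and reached 2 for 32, of which 30 were under 1 kb. FP236383.3 (chr21:8437629-8438551) measured 5.79, 43.3 and 10.2 FPKM in Ctrl and 38.6, 10.6 and 6.68 FPKM in MIR21-KO (FDR 0.984), with Ctrl replicate 2 and MIR21-KO replicate 1 high. Its span lies within RNA18SN1, a ribosomal RNA gene, in the RefSeq annotation, so its values may follow residual ribosomal RNA, which was not tested. Its log2 fold change of 0.03 turned negative under scaling by total reads (-0.01). HIF1A-AS1, opposite HIF1A, was uneven in MIR21-KO (7.43, 11.2 and 28.97 FPKM) and stood at 14.5, 11.7 and 8.30 FPKM in Ctrl. AC011445.2, the shortest at 173 bases, rested on 1 to 14 reads.

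Defining markers were checked for both groups. Keratins of epithelium were abundant, with KRT7, KRT8 and KRT18 at 335 FPKM or more in each library, while EPCAM stood at 0.389 to 1.65 FPKM and CDH1 was called lower (8.18 ± 0.584 to 2.86 ± 0.148 FPKM, SD, n = 3, FDR 0.000175). KRT19 stood at 82.9 to 129 FPKM, and KRT18 was lower without a call (-0.69 on the log2 scale, limma FDR 0.0153). Of 7 markers of other cells, PTPRC, PECAM1 and VWF were at or near 0 in all libraries, at most 0.0240 FPKM, and the summed level of the list was 12.4 to 13.99 FPKM in Ctrl and 18.4 to 20.9 FPKM in MIR21-KO. ACTA2 made up most of it and was called higher (9.82 ± 0.772 to 14.9 ± 1.83 FPKM, FDR 0.00914). COL1A1 measured 3.41 ± 0.188 FPKM in Ctrl and 3.91 ± 0.591 FPKM in MIR21-KO without a call (limma FDR 0.334). COL3A1 (0.112 ± 0.0703 and 0.589 ± 0.0472 FPKM) and CD68 (0.102 ± 0.120 and 0.186 ± 0.0712 FPKM) were too low to be tested. The part of all these markers in the lincRNA values was not tested.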

How the data were processed

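PolyA-selected, strand-specific RNA-seq of 3 Ctrl and 3 MIR21-KO libraries was used, grouped by the sample titles. The authors deposited 1 table of 58174 genes with FPKM per library and gene length. The submitters' processing notes name cutadapt 1.14, HISAT2 2.1.0, SAMtools 1.5, featureCounts 1.5.3, edgeR 3.18.1 and the build hg38. The annotation release and the strand setting of counting are not given in the sources used here. Columns of the authors' comparison (fold change, FDR) were left unused. FPKM times length gave whole reads for 100% of values (tolerance 0.001 reads). A gene of 1 kb with no read may be present at up to 3 reads' worth, 0.219 to 0.279 FPKM, which covers counting error only.

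For the 16006 genes averaging 0.5 FPKM or more, log2(FPKM + 0.1) was analysed with limma 3.58.1 (R 4.3.3, trend and robust fitting, no covariate, two-sided). FDRs were by Benjamini-Hochberg over all of them, with calls under 0.01. Fold changes on this scale understate those of low genes. On simulated data limma recovered 152 of 200 genes changed 2-fold among 16006, with 3 false calls. The changed genes were drawn from better covered ones, and the simulation held no unevenness like that of the MIR21-KO libraries. These figures therefore do not carry over to lincRNAs with few reads. The members and lists were chosen with earlier results of these data known. Named were the 8 highest members, called members, members of role lists, those at the limit, with a miR-21-5p 8mer or called with their neighbour, the MIR21 locus and called machinery mRNAs. Another 2 of the 47 listed machinery mRNAs, and a motif search, are not reported here. AL161431.1 and AC092118.1 sites, SFPQ, NONO, IGFL1, IGFL3, uneven members, uncalled members near the threshold and small RNA hosts were added after their values were seen.

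Positions and transcripts came from GENCODE 29 (GRCh38), which matched 99.42% of rows. Miscounting between overlapping genes is possible for 19 lincRNAs that share a strand with another gene. Unless strand was used in counting, it is also possible for the 66 lincRNAs that overlap a gene on the opposite strand. Alternatives were other filters, pseudocounts, scalings, thresholds, voom, GC and length correction, a replicate block and leaving out each library; a minimum of 10 reads was chosen after seeing the data, as was recounting the machinery lists. Replicate numbers did not pair the libraries.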

Additional observations from a re-analysis of the deposited data

How the results depend on the processing

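Pseudocounts, median-ratio or total-read scaling, voom and a limit of 1 FPKM moved the count of 29 called lincRNAs to between 29 and 32. It was 19 with no filter on low values, 54 at an FDR under 0.05 and 18 with a limit of 5 FPKM on the members, for 1810, 5114 and 2568 genes called in all. Called higher were 37 at an FDR under 0.05 and 27 with GC and length trends removed, where 3940 genes were called in all. Called lower were 7 with no filter and 7 with no trend and no robust fitting. Leaving out 1 library gave 12 to 36 called lincRNAs, 5 to 23 higher and 6 to 13 lower, and 768 to 3400 genes in all. Replicate numbers did not pair the libraries: deviations of same-numbered libraries correlated at -0.17, -0.02 and -0.02, and 0 of 6 libraries correlated best with their own number. With the replicate block 14 lincRNAs (8 higher, 6 lower) and 651 genes were called. Counts of lowered machinery mRNAs, 11 in the report, were 7 with no filter, 21 at an FDR under 0.05, 5 with no trend and no robust fitting, 2 with the replicate block, 6 with it and GC and length trends removed, and 2 to 15 without 1 library. The neighbour correlation of 0.49 was 0.65 within 10 kb. For the 48 named lincRNAs, 760 of 912 values under alternatives kept direction and side of the threshold, 120 lost a call, 23 gained one and 9 turned sign, all 9 in RNAs that were not called. These alternatives include the looser limit of an FDR under 0.05, so part of the 23 gains reflect that limit alone. FP236383.3 turned to -0.00579 with total-read scaling and -0.0518 with GC and length trends removed (also with the replicate block), and ran from -0.70 without MIR21-KO replicate 1 to 0.86 without Ctrl replicate 2. AC245041.1 ran from -0.0645 to 0.46 and PURPL from -0.16 to 0.19 when 1 library was left out, the lowest values being those without MIR21-KO replicate 3. The causes were not tested. Depth limits the 27 lincRNAs under 30 reads, and overlapping genes, near-identical copies and an unstated number of clones limit the rest.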
